A study of Mus musculus with 17 samples.

Results

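The precursors of 10 well-known neuropeptides were followed in mouse hippocampi through their genes Npy, Sst, Vip, Cck, Penk, Pdyn, Tac1, Tac2, Crh and Nts. These 10 genes were taken by symbol from the 55450 genes counted in each library, and all 10 were among the 17615 genes that passed the filter on low counts. Expression was measured by RNA-seq of polyadenylated RNA, 1 library per sample, in the hippocampi of adult mice. Control sgLacZ (n = 5) libraries came from mice without epilepsy, and epileptic sgLacZ (n = 6) and epileptic sgKcna1 (n = 6) libraries came from mice made epileptic by kainic acid, a glutamate receptor agonist, given in the right amygdala. All 3 groups had received a pair of AAV9 vectors in the right ventral hippocampus and a doxycycline diet. The first vector held dCas9-VP64, a Cas9 that cannot cut DNA joined to an activator of transcription, under a promoter that doxycycline switches on. The second held the guide, which was directed either to the promoter of the potassium channel gene Kcna1 (sgKcna1) or to the bacterial gene LacZ (sgLacZ, the control guide).

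The methods describe C57BL/6J mice of both sexes and a Camk2a promoter behind the doxycycline switch, so that the system acts mainly in excitatory neurons, whereas most of the peptides studied here are made by inhibitory ones. The labels do not say which hemisphere was sequenced. A group given the Kcna1 guide without epilepsy was not analysed here. Values are given as CPM, the reads of a gene per 1000000 reads in genes after TMM scaling of the libraries, and differences as log2 fold changes with their standard error (SE). A gene was called changed when its adjusted p in edgeR's quasi-likelihood test was under 0.05 after Benjamini-Hochberg adjustment over all 17615 genes. Nothing in the labels says how the samples of a group were kept apart, so p-values measure the spread between these samples.

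Neuropeptides are cut from larger precursor proteins by prohormone convertases inside dense-core vesicles and are released when neurons fire in bursts. They act at a distance from the synapse through G protein-coupled receptors. In the hippocampus many of them mark classes of GABAergic interneurons, and several are known as brakes on, or promoters of, epileptic activity.

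Npy, Sst and Vip are best known from interneurons that shape the dendrites and the wiring of the hippocampus. The gene Npy (chr6:49822710-49829507, GRCm38.p6) encodes neuropeptide Y, which lowers glutamate release. Sst (chr16:23889573-23891342) encodes somatostatin, the peptide of interneurons that contact the distal dendrites of principal cells. Vip (chr10:5639193-5647617) encodes vasoactive intestinal peptide, the peptide of interneurons that mainly inhibit other interneurons. Cck (chr9:121489824-121495694) encodes cholecystokinin, made by a class of basket cells and also by principal cells. Penk (chr4:4133536-4138815) encodes the enkephalins and Pdyn (chr2:129686549-129699938) the dynorphins, opioid peptides that are found in the granule cells of the dentate gyrus and their axons. Tac1 (chr6:7555061-7562978) encodes substance P and neurokinin A, and Tac2 (chr10:127724478-127731768) encodes neurokinin B. Crh (chr3:19693401-19695396) encodes corticotropin-releasing hormone, a stress peptide, and Nts (chr10:102481756-102490418) encodes neurotensin.

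Several neuropeptide genes are textbook examples of genes switched on through a cAMP response element, a short DNA motif bound by the activity-dependent factor CREB. RefSeq promoter windows of 300 bases (250 before to 50 after a start site, GRCm38.p6) were at hand for 8 of the 10 genes, with 2 windows for Pdyn. The letters CGTCA, which form one arm of that element, were found on either strand in the windows of 5 of them, and in 20.8% of all 32851 windows. These 5 genes also had the smallest p-values of the members in the first comparison below, and a link with the motif was not tested. Tac1 holds a further copy 197 bases before its start site, outside the stretch shown. For each of the 5 genes 110 bases that hold the motif are shown. They are read 5′ to 3′ on the strand of the gene and end just before the start site, except for Nts, where they begin 220 bases before it. Their positions are chr9:121495695-121495804 on the minus strand for Cck, chr16:23890845-23890954 on the minus strand for Sst, chr10:5639108-5639217 on the plus strand for Vip, chr6:7554951-7555060 on the plus strand for Tac1 and chr10:102490529-102490638 on the minus strand for Nts. Capitals mark CGTCA or its reverse complement TGACG and, in Nts, also the AP-1 motif TGAGTCA.
Cck: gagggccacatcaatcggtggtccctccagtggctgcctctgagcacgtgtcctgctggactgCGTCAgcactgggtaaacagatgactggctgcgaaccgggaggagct
Sst: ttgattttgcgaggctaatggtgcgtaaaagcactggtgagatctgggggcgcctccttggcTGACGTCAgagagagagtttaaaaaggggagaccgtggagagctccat
Vip: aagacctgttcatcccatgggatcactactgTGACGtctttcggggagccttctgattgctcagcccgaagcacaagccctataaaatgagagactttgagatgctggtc
Tac1: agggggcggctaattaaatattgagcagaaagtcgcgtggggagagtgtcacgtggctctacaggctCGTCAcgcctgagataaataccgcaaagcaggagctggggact
Nts: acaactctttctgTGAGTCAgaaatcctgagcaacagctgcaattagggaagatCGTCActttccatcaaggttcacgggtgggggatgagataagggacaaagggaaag
In Sst both copies overlap and form the full palindrome TGACGTCA, which was present in 1.79% of all windows. The AP-1 motif, searched as TGACTCA and its reverse complement, was present in 5.2% of all windows. These matches describe the letters of the windows and are not binding sites measured in these mice.

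The levels of the 10 transcripts spanned a wide range. Per kilobase of the longest protein-coding transcript, the mean level in control mice was highest for Sst at 1199 CPM per kilobase, with a range of 1005 to 1365 over 5 libraries. Cck followed at 1142 CPM per kilobase, and its range of 989.6 to 1223 overlapped that of Sst. Npy, at 168.6 CPM per kilobase, lay apart from its neighbours on both sides. Penk (28.67), Tac1 (23.9), Vip (16.53) and Nts (12.66) CPM per kilobase came next, and among these the ranges of neighbours in this order overlapped. Tac2 (8.463), whose range overlapped neither that of Nts nor that of Pdyn, Pdyn (5.122) and Crh (3.125) were lowest, and the ranges of Pdyn and Crh overlapped. The order in epileptic mice differed from this only by an exchange of Nts and Tac2, in both epileptic groups, and there the ranges of Nts and Tac2 overlapped. Sst and Cck were counted with between 6542 and 23223 reads per library and Crh with 26 to 131, so that counting error weighs most on Crh.

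The libraries held 11839240 to 28311328 reads in genes, and 11.0 to 41.5% of all reads were unmapped. The share unmapped was 19.5 to 27.7% in control sgLacZ, 11.0 to 24.1% in epileptic sgLacZ and 19.1 to 41.5% in epileptic sgKcna1 libraries. By Xist and Y-linked genes 2 of 5 control, 4 of 6 epileptic sgLacZ and 2 of 6 epileptic sgKcna1 libraries were female. In 6 libraries (2 control, 1 epileptic sgLacZ and 3 epileptic sgKcna1) both kinds of transcript reached 2 CPM, the lesser at 2.67 to 11.8 CPM, and whether they held RNA of more than 1 mouse was not tested. Kcna1, the targeted gene, was at 35.1 ± 6.7 CPM (SD, n = 5) in control sgLacZ, 30.1 ± 14.5 (n = 6) in epileptic sgLacZ and 38.2 ± 46.5 (n = 6) in epileptic sgKcna1. The last group held 5 libraries between 13.89 and 29.5 CPM and replicate 12 at 132.5 CPM. Kcna1 had a log2 fold change of 0.32 (SE 0.47, adjusted p = 0.706) between both epileptic groups with that library and of -0.65 (SE 0.27, adjusted p = 0.293) without it.

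The first comparison, of epileptic sgLacZ against control sgLacZ, addresses whether the peptide transcripts differ in mice with chronic epilepsy. Cck and Nts were called lower in epileptic mice, with mean levels 0.575 and 0.565 times those of controls. The other 8 were not called. Of the 10 genes 9 had a log2 fold change below 0, with a median of -0.565, against 48% of all genes tested and a median of 0.0201 over all genes. In this comparison 11.0% of all genes tested were called, and 3.76% were called lower, so that 2 of 10 called lower is to be read against those shares. An unadjusted p under 0.05 was reached by 6 of the 10, as by 34.7% of all genes. Of the 10 transcripts 9 are under 2000 bases long, and the values of other genes of that length are given after those of the members.

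Cck was at 976.1, 966.5, 789.7, 929.6 and 896.1 CPM in the 5 control libraries (replicates 13, 14, 15, 16 and 23). The epileptic sgLacZ libraries held 292.4, 998.5, 557.5, 335.4, 596.1 and 362.7 CPM (replicates 4, 5, 6, 7, 8 and 9). Of the epileptic libraries 5 of 6 lay below every control, and replicate 5 lay above every control. The log2 fold change was -0.80 (SE 0.24, adjusted p = 0.0426).

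Nts, the other gene called lower, was at 20.02, 12.57, 12.96, 15.26 and 13.61 CPM in control libraries. It was at 10.28, 13.05, 6.939, 6.592, 7.62 and 5.941 CPM in epileptic sgLacZ libraries. Again 5 of 6 lay below every control, and replicate 5 lay among the controls. The log2 fold change was -0.82 (SE 0.24, adjusted p = 0.0407).

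Sst divided the libraries much as Cck did, with replicate 5 among the controls and the other 5 epileptic libraries below them. Control libraries held 817.9, 768.6, 602.1, 741.9 and 660.3 CPM, and epileptic sgLacZ libraries 225.6, 810.5, 440.3, 266.2, 433.7 and 304.2 CPM, the second of these being replicate 5. Its log2 fold change of -0.80 (SE 0.26) had an adjusted p of 0.0505 in edgeR's test and was not called. Npy ranged from 82.28 to 109 CPM (median 99.49) in controls and from 35.04 to 95.19 CPM (median 68) in epileptic sgLacZ mice, with a log2 fold change of -0.52 (SE 0.27, adjusted p = 0.182). Vip ranged from 22.47 to 28.46 CPM (median 24.65) and from 12.8 to 25.53 CPM (median 18.94), with a log2 fold change of -0.38 (SE 0.17, adjusted p = 0.11). For Npy 5 and for Vip 4 of the 6 epileptic libraries lay below every control, and neither gene was called.

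The opioid precursors lay close to control levels in epileptic sgLacZ mice. Penk was at 35.13 to 48.75 CPM (median 40.97) in controls and 29.97 to 60.84 CPM (median 36.31) in epileptic mice, a log2 fold change of -0.07 (SE 0.31, adjusted p = 0.895). Pdyn was at 7.143 to 17.15 CPM (median 13.07) and 9.7 to 14.57 CPM (median 11.52), a log2 fold change of -0.03 (SE 0.23, adjusted p = 0.931). For both genes the ranges overlapped widely. The direction for Penk turned without TMM scaling and with both strand counts added. It also turned with the share of unmapped reads as a covariate (0.218) and with the transcript length offset described below (0.13). That for Pdyn turned without TMM scaling and, with 1 library left out, reached 0.12.

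The tachykinin precursors went in opposite directions, neither past the threshold. Tac1 was at 17.56 to 29.45 CPM (median 25.97) in controls and 8.726 to 25.59 CPM (median 14.15) in epileptic sgLacZ mice, with a log2 fold change of -0.75 (SE 0.28, adjusted p = 0.0739). Tac2, at 4.978 to 6.439 CPM (median 5.599) in controls and 5.245 to 11.03 CPM (median 7.005) in epileptic mice, was the only member of the set above 0, with a log2 fold change of 0.38 (SE 0.24, adjusted p = 0.26). Crh was at 3.538 to 4.715 CPM (median 4.221) and 1.207 to 4.23 CPM (median 2.802), with a log2 fold change of -0.61 (SE 0.28, adjusted p = 0.126). Of the 6 epileptic libraries 5 lay below every control for Tac1 and for Crh, and 4 of 6 lay above every control for Tac2. No member had groups without any overlap, against 4.39% of all genes tested.

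**Figure D1:**
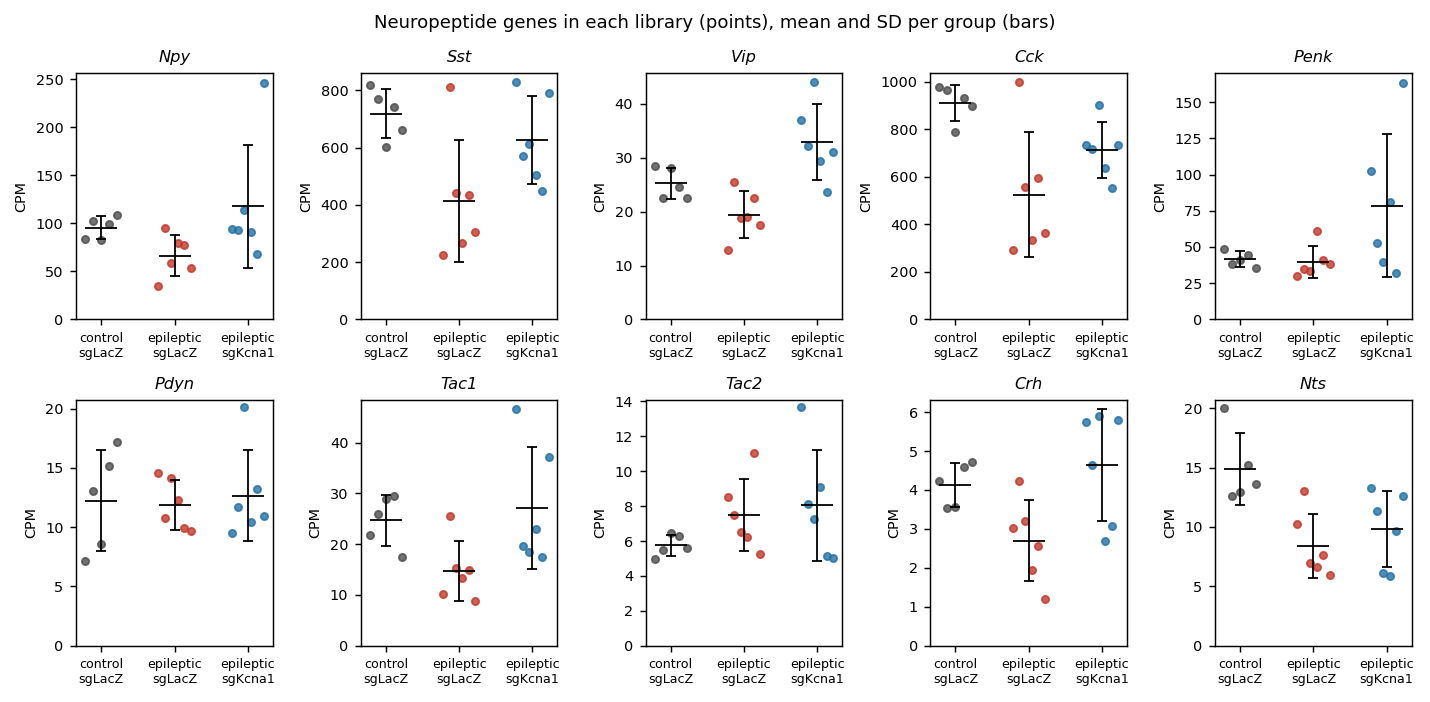
CPM of each of the 10 neuropeptide genes (vertical axes, each starting at 0) in control sgLacZ, epileptic sgLacZ and epileptic sgKcna1 libraries. Points are libraries, and the bars give the mean and SD of each group. Cck and Sst show 5 epileptic sgLacZ libraries below all controls and 1 among or above them, at 998.5 and 810.5 CPM.

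The calls of Cck and Nts rested on the make-up of the groups. In fits that left out 1 library at a time Cck was called in 6 of 17 and Nts in 8 of 17, and neither was called without any 1 of the 5 control libraries or without epileptic sgLacZ replicate 4, 6, 7 or 9. Without control replicate 13, 14, 16 or 23 or epileptic sgLacZ replicate 4, 7 or 9, however, 0 genes of any kind were called. The fits without control replicate 15 and without epileptic sgLacZ replicate 6 called 519 of 17885 and 952 of 17507 genes. Without epileptic sgLacZ replicate 5 the number of members called rose from 2 to 6. Over all genes the number called rose as well, from 1940 of 17615 to 5526 of 17650. The 6 members were Sst (log2 fold change -1.10, adjusted p = 0.00273), Cck (-1.09, adjusted p = 0.00206), Nts (-0.99, adjusted p = 0.00598), Tac1 (-0.98, adjusted p = 0.0103), Crh (-0.78, adjusted p = 0.038) and Vip (-0.48, adjusted p = 0.0328). With epileptic sgKcna1 replicate 12 left out, which belongs to neither group but shares the estimate of spread, 5 members and 4777 of 17608 genes were called. With sex as a covariate 516 of 17615 genes were called. Neither Cck nor Nts was among them, at adjusted p-values of 0.0602 for Cck and 0.0519 for Nts. Within females (4 against 2 libraries) the difference in mean log2 CPM was -0.917 for Cck and -0.697 for Nts, and within males (2 against 3) it was -0.963 and -1.13. Over all alternatives the adjusted p ranged from 0.000376 to 0.798 for Cck, from 0.000551 to 0.798 for Nts and from 0.000428 to 0.798 for Sst.

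A gradient along transcript length ran through these libraries. Genes whose longest protein-coding transcript is under 1000 bases (929 genes) had a median log2 fold change of -0.493 in epileptic sgLacZ against control sgLacZ, and 87.6% of them were below 0. The median was -0.144 for genes of 1000 to 2000 bases, 0.0908 for 2000 to 4000 bases and 0.209 above 4000 bases. The neuropeptide transcripts had 566 bases for Npy, 599 for Sst, 680 for Tac2, 798 for Cck, 1034 for Tac1, 1176 for Nts, 1320 for Crh, 1449 for Penk, 1527 for Vip and 2386 for Pdyn. Set against genes of their own length class, Npy (-0.52 against -0.493) lay near the median, and Cck and Sst (both -0.80 against -0.493) lay below it. Nts (-0.82), Tac1 (-0.75), Crh (-0.61) and Vip (-0.38) lay below the median of -0.144 of their class, Penk (-0.07) lay above it, and Tac2 (0.38 against -0.493) lay far above that of its class.

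The same gradient told single libraries apart. Over 925 short-transcript genes other than the members, the median log2 deviation from the mean of all 17 libraries was -0.841 in epileptic sgLacZ replicate 4, -0.539 in replicate 7, -0.438 in replicate 9, -0.167 in replicate 6, 0.0727 in replicate 8 and 0.404 in replicate 5. Controls lay between 0.112 and 0.498 and epileptic sgKcna1 libraries between -0.134 and 0.434. Replicates 4, 7 and 9, which held the least Cck and Sst, were the 3 libraries with the lowest short-transcript medians and also those with the smallest shares of unmapped reads (11.0, 15.8 and 17.2%). Replicate 5, in which Cck and Sst were at control levels, had a short-transcript median within the range of the controls. The source of this gradient was not tested.

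**Figure D2:**
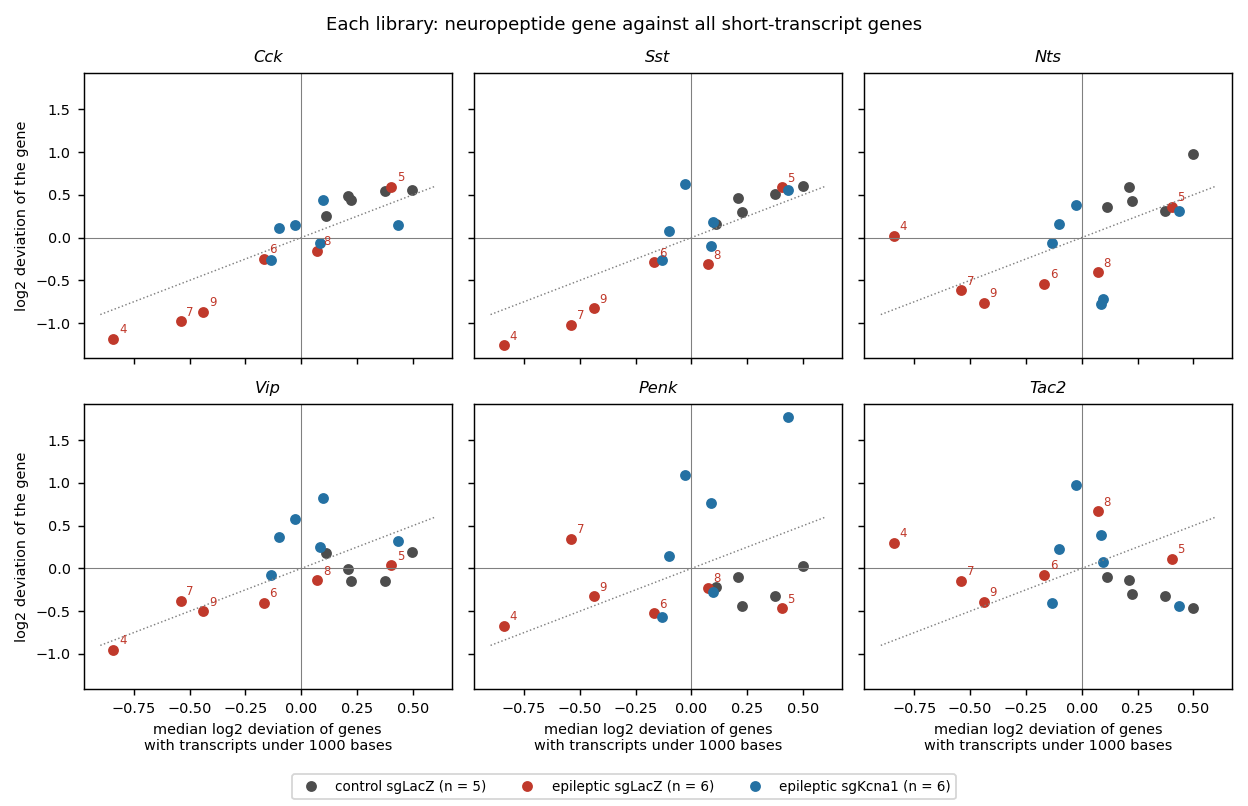
Log2 deviation of 6 neuropeptide genes from their mean over 17 libraries (vertical) against the median log2 deviation of the genes with transcripts under 1000 bases in the same library (horizontal). Points are libraries coloured by group, numbers are epileptic sgLacZ replicates, and the dotted line marks equal deviations. Cck and Sst are lowest in replicates 4, 7 and 9, where the short-transcript median was -0.841, -0.539 and -0.438, while Penk and Tac2 do not follow that order.

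When the dependence on transcript length was taken out of each library as an offset, an alternative chosen after seeing the data, 14619 genes with a known length could be fitted. Cck was again called lower, at a smaller log2 fold change (-0.42, SE 0.13, adjusted p = 0.0426). Nts was no longer called (-0.52, SE 0.24, adjusted p = 0.13). Tac2, the peptide precursor of neurokinin B, was then called higher in epileptic sgLacZ mice (0.98, SE 0.30, adjusted p = 0.0446). Sst shrank to -0.28 (SE 0.13, adjusted p = 0.126) and Tac1 to -0.45 (SE 0.24, adjusted p = 0.189), while Npy turned to 0.09 (SE 0.19, adjusted p = 0.751). The count of members called was 2 in both fits, but of these only Cck was called in both. Over all genes the fit with the offset called 1733 of 14619, with 970 higher and 763 lower. Without the 4 libraries with the lowest share of unmapped reads (epileptic sgLacZ replicates 4, 7 and 9 and epileptic sgKcna1 replicate 2) 0 of 18041 genes were called (1008 at an unadjusted p under 0.05), and Cck had a log2 fold change of -0.35 (SE 0.19, adjusted p = 0.798) and Nts of -0.70 (SE 0.30, adjusted p = 0.798).

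**Figure D3:**
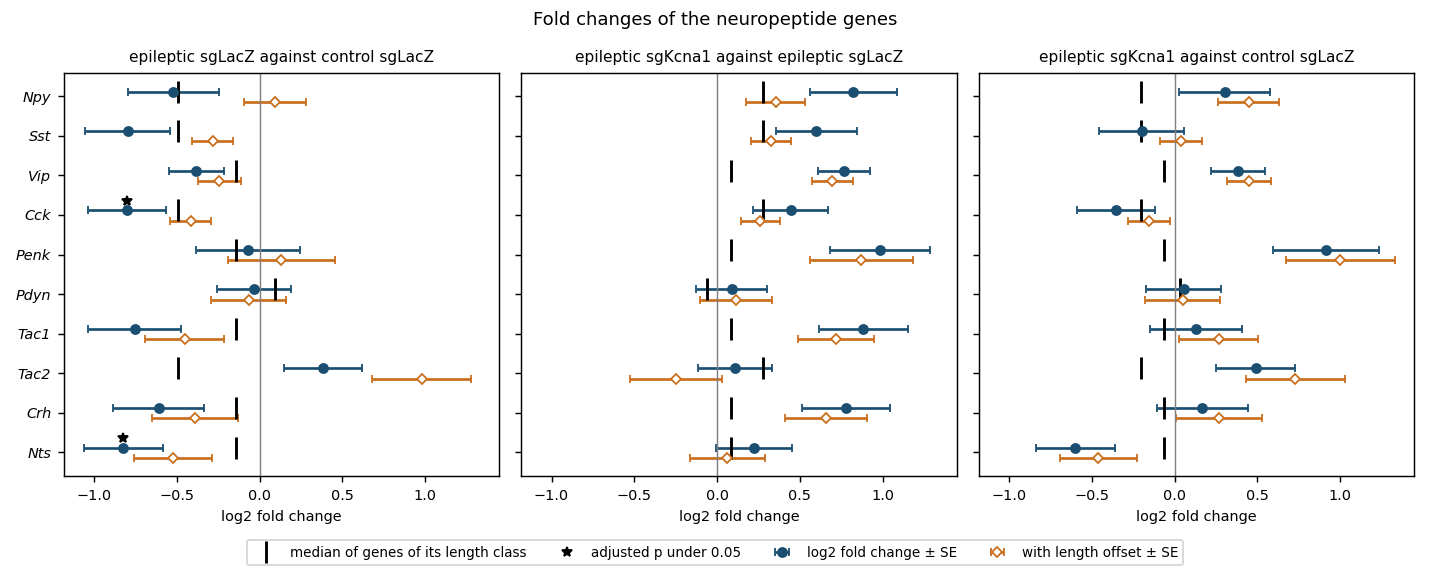
Log2 fold change (horizontal, points with SE) of each neuropeptide gene in the 3 comparisons. Filled circles are the fit over 17615 genes, open diamonds the fit with a transcript length offset, vertical ticks the median of all genes in the same length class, and stars mark an adjusted p under 0.05. In the first panel Cck (-0.80) and Nts (-0.82) carry stars, and the offset moves Npy to 0.09 and Tac2 to 0.98.

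The second comparison, of epileptic sgKcna1 against epileptic sgLacZ, addresses whether the peptide transcripts differ with the Kcna1 guide among epileptic mice. In edgeR's test 0% of all genes were called and no member was, while DESeq2 called 112 and limma voom 12 genes. All 10 members had a log2 fold change above 0, with a median of 0.681 against -0.00586 over all genes, and 6 of 10 reached an unadjusted p under 0.05, as did 19.2% of all genes. This comparison uses the same 6 epileptic sgLacZ libraries as the first, so that the low values of replicates 4, 7 and 9 enter both.

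Vip had the smallest p of the set. It was at 37.09, 32.11, 44.12, 29.47, 23.58 and 30.99 CPM in epileptic sgKcna1 libraries (replicates 1, 2, 3, 10, 11 and 12) against 12.8, 25.53, 18.8, 19.09, 22.56 and 17.54 CPM in epileptic sgLacZ libraries. Of these 5 of 6 lay above every epileptic sgLacZ library, the exception being replicate 11 at 23.58 CPM. The log2 fold change was 0.76 (SE 0.16) at an unadjusted p of 0.000118 in edgeR's test and an adjusted p of 0.213. Vip was called in DESeq2 (log2 fold change 0.77, adjusted p = 0.00956) and in limma voom with sample weights (0.76, adjusted p = 0.0414), and it had an adjusted p of 0.0992 with the length offset (0.69, SE 0.13). The adjusted p of Vip ranged from 0.00956 to 0.998 over all alternatives.

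Penk, the enkephalin precursor, had the largest log2 fold change of the set in this comparison, 0.98 (SE 0.30, adjusted p = 0.213). Its epileptic sgKcna1 libraries were spread from 32.25 to 163.2 CPM, with 102.1, 52.75, 39.45, 81.24, 32.25 and 163.2 CPM in replicates 1, 2, 3, 10, 11 and 12. Of the 6 libraries 3 lay above the highest epileptic sgLacZ library, at 60.84 CPM. Replicate 12 was also the library with the most unmapped reads (41.5%), the fewest reads in genes and the most Kcna1, and without it the log2 fold change of Penk was 0.63 (SE 0.24, adjusted p = 0.281). The summed level of 10 striatum and amygdala markers, tissue in which Penk is abundant, was 171 to 262 CPM in control, 204 to 258 in epileptic sgLacZ and 203 to 281 in epileptic sgKcna1 libraries, highest in replicate 12, and its part in the Penk levels was not tested. For Penk the reads of both strands added up to 1.074 times the unstranded count, so that some of its reads overlap a feature on the other strand, while the ratio was 1 for the other 9 members.

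Npy was at 93.95, 93.56, 113.5, 91.55, 68.58 and 245.9 CPM in epileptic sgKcna1 libraries. Replicate 12 alone held more than 2 times as much as the next library. Its log2 fold change of 0.82 (SE 0.26, adjusted p = 0.213) became 0.47 (SE 0.19, adjusted p = 0.286) without replicate 12. Sst ranged from 448.1 to 828.3 CPM (median 591.1) and Cck from 553.4 to 901.3 CPM (median 725.8), with log2 fold changes of 0.60 (SE 0.24, adjusted p = 0.226) and 0.44 (SE 0.23, adjusted p = 0.282). Of these libraries only replicate 1, for Sst, lay above every epileptic sgLacZ library, since replicate 5 of the latter held 810.5 CPM of Sst and 998.5 CPM of Cck.

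Tac1 was at 17.5 to 46.62 CPM (median 21.3) in epileptic sgKcna1 mice, with a log2 fold change of 0.88 (SE 0.27, adjusted p = 0.213). Crh was at 2.679 to 5.89 CPM (median 5.193), and 4 of 6 libraries lay above every epileptic sgLacZ library, with a log2 fold change of 0.78 (SE 0.26, adjusted p = 0.213). Nts (0.22, SE 0.23), Tac2 (0.11, SE 0.22) and Pdyn (0.09, SE 0.22) had the smallest log2 fold changes, at adjusted p-values of 0.576, 0.798 and 0.831 in edgeR's test. The direction for Tac2 turned with the length offset, to -0.25 (SE 0.28). No member had groups without overlap, against 0.483% of all genes.

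The length gradient ran the other way here, with a median log2 fold change of 0.275 for genes with transcripts under 1000 bases and -0.138 for those over 4000 bases. Cck (0.44), Sst (0.60) and Npy (0.82) lay above the 0.275 of their class, and Tac2 (0.11) below it. Vip, Penk, Tac1 and Crh lay well above the 0.0857 of genes between 1000 and 2000 bases. Nts (0.22, SE 0.23), of the same class, lay within its SE of that median. The calls depended on 1 library. Without epileptic sgLacZ replicate 5 the number of members called rose from 0 to 6, with Sst (0.91, adjusted p = 0.0377), Vip (0.86, adjusted p = 0.0377), Cck (0.73, adjusted p = 0.0406), Tac1 (1.11, adjusted p = 0.0406), Crh (0.945, adjusted p = 0.0437) and Npy (0.95, adjusted p = 0.0445). Over all genes the number called in that fit rose from 0 to 1508 of 17650, with 757 of them higher. Without the 4 libraries lowest in unmapped reads Cck had a log2 fold change of -0.01 (SE 0.19), Sst of 0.19 (SE 0.23) and Vip of 0.57 (SE 0.18). Penk had 1.21 (SE 0.40), Npy 0.67 (SE 0.32), Tac1 0.62 (SE 0.32) and Crh 0.48 (SE 0.30). Pdyn had 0.15 (SE 0.29), Nts 0.05 (SE 0.29) and Tac2 -0.04 (SE 0.29). In that fit 0 of 18041 genes were called.

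The third comparison, of epileptic sgKcna1 against control sgLacZ, addresses whether peptide transcripts in epileptic mice given the Kcna1 guide differ from those of mice without epilepsy. In edgeR's test 0% of all genes were called, while DESeq2 called 39 and limma voom 71, and no member was called in these fits or in any other alternative run. The median log2 fold change of the 10 genes was 0.148 against 0.0159 over all genes, with 7 above and 3 below 0. An unadjusted p under 0.05 was reached by 3 of 10 members, against 6.77% of all genes, and no member had groups without overlap, against 1.14%. Penk (0.91, SE 0.32, adjusted p = 0.674) and Vip (0.38, SE 0.17, adjusted p = 0.711) were above 0. Nts, at 13.27, 11.35, 6.112, 5.882, 9.666 and 12.6 CPM in epileptic sgKcna1 libraries, was below it (-0.60, SE 0.24, adjusted p = 0.678), with 4 of 6 libraries under every control.

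The remaining 7 genes had log2 fold changes between -0.35 (Cck, SE 0.24, adjusted p = 0.776) and 0.49 (Tac2, SE 0.24, adjusted p = 0.754). Of the 6 epileptic sgKcna1 libraries 5 lay below every control for Cck, and 5 of 6 lay above every control for Vip. Sst (-0.20, SE 0.26), Tac1 (0.13, SE 0.28), Crh (0.17, SE 0.28), Npy (0.30, SE 0.28) and Pdyn (0.05, SE 0.23) had adjusted p-values of 0.819 to 0.964 in edgeR's test. The direction for Npy turned without epileptic sgKcna1 replicate 12, to -0.06 (SE 0.20).

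Receptors and binding proteins of these peptides formed the first further list. Of 24 listed genes 21 were tested, and in epileptic sgLacZ against control sgLacZ 5 were called higher and none lower, with a median log2 fold change of 0.481. Of all genes tested 7.26% were called higher, and the share was 7.9% among transcripts of 2000 to 4000 bases and 14.3% among longer ones. Somatostatin receptors made up 3 of the 5, namely Sstr4 (3.57, SE 0.82, adjusted p = 0.0324), Sstr1 (2.51, SE 0.62, adjusted p = 0.033) and Sstr3 (0.46, SE 0.14, adjusted p = 0.0429). The others are the VIP receptor gene Vipr2 (2.21, SE 0.64, adjusted p = 0.0414), which had only 0 to 8 reads per control library, and the neurotensin-binding sortilin gene Sort1 (0.67, SE 0.19, adjusted p = 0.0391). Sstr3 and Sort1 were named after their values were seen.

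Sstr4 was at 0.05411, 0.4994, 1.171, 0.4664 and 0.3536 CPM in control libraries and at 17.47, 0.5222, 2.723, 8.546, 1.979 and 6.405 CPM in epileptic sgLacZ libraries (replicates 4 to 9). It was highest in replicates 4, 7 and 9, the libraries lowest in Sst, and replicate 5 lay among the controls. Sstr1 was at 0.4162 to 3.387 CPM in controls and at 18.69, 1.828, 8.124, 17.01, 6.333 and 14.94 CPM in epileptic sgLacZ libraries, in the same order of the top 3 libraries. Sort1 was at 214.7 to 263.7 CPM in controls and at 569.6, 229.6, 323.1, 414.1, 287.6 and 446.6 CPM in epileptic sgLacZ libraries, highest in replicate 4, then 9 and then 7.

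The transcripts of the 5 called genes have 2014 bases for Sstr1 to 6796 for Sort1. With the length offset Sstr4 (3.60, adjusted p = 0.029), Sstr1 (2.58, adjusted p = 0.0304), Vipr2 (2.07, adjusted p = 0.0407) and Sort1 (0.44, adjusted p = 0.0481) were still called higher, Sstr3 was not (0.28, adjusted p = 0.0995), and the neuropeptide Y receptor genes Npy2r (-0.40, adjusted p = 0.0422) and Npy5r (-0.50, adjusted p = 0.0482) were called lower. No receptor was called with the share of unmapped reads as a covariate or without the 4 libraries lowest in it, nor without control replicate 13, 14, 16 or 23 or epileptic sgLacZ replicate 4, 7 or 9. The fit with the covariate called 428 of 17615 genes. The other fits named here called 0 genes of any kind, so they say nothing particular to the receptors. In the other comparisons no receptor was called. The smallest p-values belonged to Sstr4 in epileptic sgKcna1 against epileptic sgLacZ (-2.75, SE 0.72, adjusted p = 0.213) and to Npy2r in epileptic sgKcna1 against control sgLacZ (-0.51, SE 0.14, adjusted p = 0.449).

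**Figure D4:**
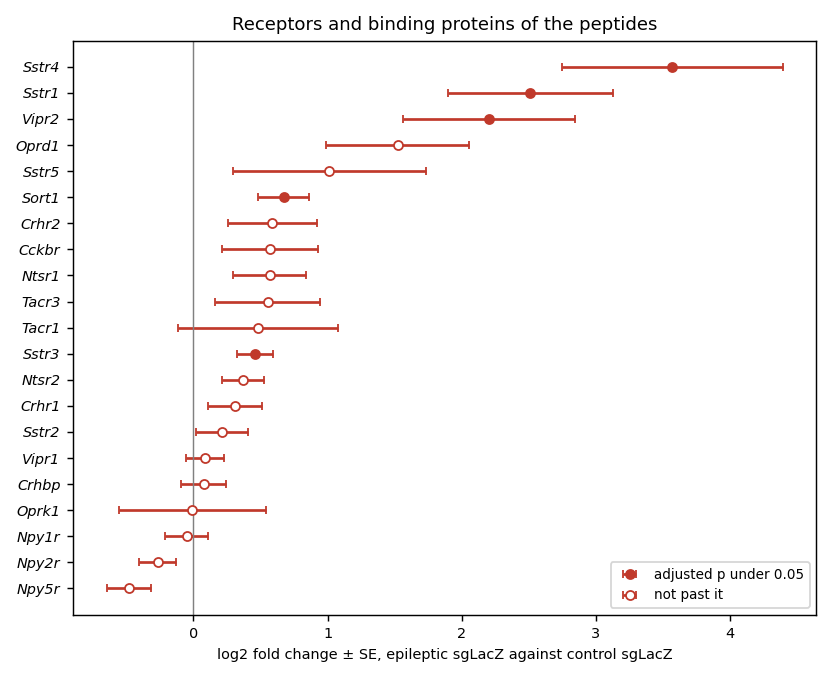
Log2 fold change with SE (horizontal) of the 21 tested receptors and binding proteins in epileptic sgLacZ against control sgLacZ. Filled points have an adjusted p under 0.05. Sstr4 (3.57), Sstr1 (2.51), Vipr2 (2.21), Sort1 (0.67) and Sstr3 (0.46) are filled, and 17 of 21 genes lie above 0.

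The genes of the machinery that cuts, packs and releases peptides held 1 call. Of 16 genes tested, Scg5, the gene of the 7B2 chaperone of prohormone convertase 2, was called lower in epileptic sgLacZ mice (-0.47, SE 0.13, adjusted p = 0.0366), and 0 were called higher. Over all genes tested 3.76% were called lower and 7.26% higher. With the length offset Scg5 had an adjusted p of 0.0556. The median of the list was -0.0165. In the other comparisons the smallest p-values were those of Mme, the gene of the peptide-degrading enzyme neprilysin (-0.61, SE 0.21, adjusted p = 0.213, epileptic sgKcna1 against epileptic sgLacZ), and Pam, the gene of the amidating enzyme (0.19, SE 0.11, adjusted p = 0.766, epileptic sgKcna1 against control sgLacZ).

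Among 18 other peptide precursors 15 were tested, and none was called in any comparison. In the 3 comparisons in turn 2, 6 and 1 of these had an unadjusted p under 0.05, against 34.7, 19.2 and 6.77% of all genes. Their median log2 fold change was -0.307 in epileptic sgLacZ against control sgLacZ and 0.55 in epileptic sgKcna1 against epileptic sgLacZ. The smallest p-values were those of Cort, the gene of cortistatin (-0.99, SE 0.32, adjusted p = 0.0523), Adcyap1, the gene of the VIP relative PACAP (1.02, SE 0.27, adjusted p = 0.213), and Trh, the gene of thyrotropin-releasing hormone (3.31, SE 1.07, adjusted p = 0.61), in the 3 comparisons in turn. Trh was at 24.04 CPM in epileptic sgKcna1 replicate 1 and at 0.233 to 1.419 CPM in the other 5 libraries of that group, so its fold change rests on 1 library.

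Interneurons, which make many of these peptides, were followed by a list of markers. None of 18 GABAergic interneuron markers was called in any comparison in edgeR's test. In epileptic sgLacZ against control sgLacZ their median was -0.0572, and 2 had an unadjusted p under 0.05, against 34.7% of all genes. These 2 went in opposite directions, with Nos1 above 0 (0.68, SE 0.27, adjusted p = 0.0878) and Pvalb below it. Pvalb, the gene of parvalbumin, was at 55.62 ± 33.6 CPM (SD, n = 6) in epileptic sgLacZ and 112.2 ± 14.4 (n = 5) in control libraries, a log2 fold change of -1.01 (SE 0.33, adjusted p = 0.0524) that is farther below 0 than that of any member. With the length offset it was -0.73 (adjusted p = 0.0558), and Cnr1, the cannabinoid receptor gene of CCK basket cells, was called lower (-0.42, adjusted p = 0.029; without the offset -0.23, adjusted p = 0.144). Nos1, Pvalb and Cnr1 were named after their values were seen. The summed level of the list was 1350 to 1516 CPM in control, 1136 to 1842 in epileptic sgLacZ and 1157 to 1722 in epileptic sgKcna1 libraries, and it was highest in epileptic sgLacZ replicate 4. In bulk tissue fewer cells of a type and less RNA per cell cannot be told apart. None of 12 activity-regulated genes was called either, with medians of -0.368, 0.469 and 0.25 in the 3 comparisons in turn. Of these 12 genes 5, 4 and 2 had an unadjusted p under 0.05, against 34.7, 19.2 and 6.77% of all genes.

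Among 12 markers of hippocampal principal cells, Slc17a7 (0.77, SE 0.21, adjusted p = 0.0366) and Wfs1 (0.49, SE 0.15, adjusted p = 0.0478) were called higher and Bok (-0.52, SE 0.16, adjusted p = 0.0454) lower in epileptic sgLacZ mice, and all 12 were detected in every group. These calls and those of the glial lists below are to be read against 7.26% called higher and 3.76% called lower among all genes tested. With the length offset Slc17a7 was again called (0.66, adjusted p = 0.0358), while Wfs1 (0.34, adjusted p = 0.0748) and Bok (-0.34, adjusted p = 0.113) were not. Slc17a7, the gene of the main glutamate transporter of cortical synaptic vesicles, was highest in replicates 4, 7 and 9, at 1573, 1383 and 1513 CPM, against 564.1 to 771.7 CPM in controls. Glial genes called higher were Gfap (0.60, SE 0.18, adjusted p = 0.0447) and Aldh1l1 (0.33, SE 0.09, adjusted p = 0.0391) of 8 astrocyte markers and Csf1r (0.38, SE 0.10, adjusted p = 0.0356) of 8 microglia markers. With that offset none of these 3 was called (adjusted p = 0.0577, 0.215 and 0.148), and C1qb, a complement gene of microglia named after its values were seen, was (0.68, adjusted p = 0.0369). The astrocyte list had a median log2 fold change of 0.346, with 5 of 8 genes at an unadjusted p under 0.05. The microglia list had a median of -0.127, with 1 of 8 at that level. Over all genes the median was 0.0201, and 34.7% were at that level. None of 8 oligodendrocyte and 8 vascular markers was called, with 2 and 3 at an unadjusted p under 0.05.

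Tissue next to the hippocampus that also holds peptides was followed by marker lists. In the thalamus and habenula list (12 genes) Pou4f1, a habenula gene at 0 to 0.5304 CPM in controls, was called higher (2.87, SE 0.87, adjusted p = 0.0447), and the summed level was 93.5 to 126 CPM in control and 84.2 to 221 in epileptic sgLacZ libraries, highest in replicate 4. In the neocortex and subiculum list (12 genes) Etv1 was called lower (-0.46, SE 0.13, adjusted p = 0.0404). Over all genes tested 7.26% were called higher and 3.76% lower in that comparison, epileptic sgLacZ against control sgLacZ. With the length offset Pou4f1 (2.82, adjusted p = 0.0422) and Etv1 (-0.62, adjusted p = 0.0318) were again called, and so was the habenula gene Gpr151 (1.46 and adjusted p = 0.0553 without the offset, adjusted p = 0.0451 with it), named after its values were seen. None of 10 striatum and amygdala markers (3 at an unadjusted p under 0.05) and none of 10 choroid plexus markers (0 at that level) was called. Of all genes 34.7% were at that level in epileptic sgLacZ against control sgLacZ. The choroid plexus sum ranged from 301 to 12690 CPM over all libraries. No listed gene was called in either comparison with epileptic sgKcna1. In epileptic sgKcna1 against epileptic sgLacZ, where all 10 members lay above 0, the neocortex and subiculum markers had a median log2 fold change of 0.332 with 7 of 12 at an unadjusted p under 0.05, and the choroid plexus markers one of -0.954 with 4 of 10, against 19.2% of all genes. The summed neocortex and subiculum level was 361 to 405 CPM in control, 305 to 401 in epileptic sgLacZ and 347 to 521 in epileptic sgKcna1 libraries. The part of such tissue in the levels of the members was not tested.

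The pattern of each member over the 17 libraries was compared with that of 14171 other genes, after subtracting the mean of each group, by Pearson's r of log2 CPM. These values share library depth and the length gradient and are given as a description. Cck was most like Rpl31 (r = 0.976), Eif3i (0.966) and Rpl35 (0.956), and Sst most like H2afx (0.974), Mif (0.954) and Nap1l1 (0.951). Npy followed Hnrnpm (0.939), Vps45 (0.919) and Kif5b (0.915), and Vip followed Tmem191c (0.896), Acta1 (0.876) and Pcmt1 (0.863). Rprm (0.887), Dgkb (0.845) and Ap1s1 (0.838) were nearest to Penk, and Tecpr1 (0.842), Hspa1a (0.791) and Kcnh7 (0.786) to Pdyn.

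For Tac1 the nearest genes were Ppp1r2, Macrod2 and Wnt4 (each 0.881), and for Tac2 they were Coch (0.835), St6gal2 (0.804) and Gm9755 (0.784). Crh came closest to Rnf144b (0.865), Nog (0.844) and Gm13847 (0.827), and Nts to Maged1 (0.872), Smox (0.847) and Fzd9 (0.824). Among the members themselves Cck and Sst were most alike (r = 0.921), followed by Tac1 and Sst (0.764) and by Cck and Vip (0.754). Pdyn ran against Penk (r = -0.475), Tac1 (-0.33) and Nts (-0.325).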

How the data were processed

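Counts of reads per gene were deposited by the authors, 1 list per library, after alignment to mm10 with STAR 2.7 per the labels' processing notes, and were not normalized. The unstranded counts were used, since reads on both strands were nearly equal. The main test was run with edgeR 4.0.16 (R 4.3.3). Genes with few reads were dropped by filterByExpr, TMM factors scaled the libraries, and all 17 libraries entered 1 quasi-likelihood fit with a coefficient per group, tested two-sided for 3 contrasts. limma 3.58.1 and DESeq2 1.42.0, the study's tool, served as alternatives, and the edgeR fit was tested on simulated data. Symbols came from a table of gene names, coordinates and promoters from RefSeq (GRCm38.p6), and transcript lengths (83% of tested genes) from mm9 protein-coding transcripts. All 10 members are named, with up to 3 genes per list and contrast of largest log2 fold change among those called, otherwise the gene of smallest p for receptors, processing genes and other precursors, and the 3 genes most like each member among tested genes of at least 1 CPM. Members and lists were chosen with earlier results of these data known. A count of 3 reads corresponds to 0.106 to 0.253 CPM, which covers counting error only. Replicates differed beyond sampling noise in all 40 pairs.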

Additional observations from a re-analysis of the deposited data

Results flagged for a closer look

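Of 30 groups of library values (10 genes in 3 groups) 4 held a library that stood apart from the others of its group by Dixon's criterion. Chance alone meets it in about 1 of 20 independent groups of normally distributed values. The 10 genes were measured in the same libraries, so the count of 4 cannot be judged against that rate. Npy was at 246 CPM in epileptic sgKcna1 replicate 12, with the next library at 113 CPM. Sst was at 810 CPM in epileptic sgLacZ replicate 5, with the next at 440 CPM. Penk was at 60.8 CPM in epileptic sgLacZ replicate 7, with the next at 40.8 CPM. Pdyn was at 20.1 CPM in epileptic sgKcna1 replicate 3, with the next at 13.2 CPM.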

How the results depend on the processing

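No paired analysis was possible because no replicate number occurs in more than 1 group. In epileptic sgLacZ against control sgLacZ the number of members called was 2, and it was 4 with DESeq2, 7 with limma voom and quality weights, and 0 with the share of unmapped reads or sex as a covariate and without the 4 libraries lowest in unmapped reads. Over all genes the main fit called 1940 of 17615, DESeq2 3539 of 16911 and limma voom 7301 of 17615. The unmapped covariate gave 428 of 17615, sex 516 of 17615 and the fit without the 4 libraries 0 of 18041. The number of members called lay between 0 and 6 when 1 library was left out, with at least 1 member called in 8 of 17 fits. All genes called in those 17 fits ranged from 0 to 5526. In epileptic sgKcna1 against epileptic sgLacZ the number of members called was 0, it was 1 with DESeq2 (112 of 18932 genes) and with limma voom (12 of 17615 genes), and it lay between 0 and 6 with 1 library left out (0 to 1508 genes). In epileptic sgKcna1 against control sgLacZ the number of members called was 0 under every alternative run. Log2 fold changes that changed sign in the first comparison were Npy 0.0933 with the length offset, Penk 0.00793 without TMM, 0.0365 with both strand counts added, 0.218 with the unmapped covariate and 0.13 with the length offset, and Pdyn 0.0435 without TMM and between -0.175 and 0.12 with 1 library left out. In the second they were Cck -0.00529 without the 4 libraries, Tac2 -0.0358 with sex, -0.0387 without the 4 libraries, -0.249 with the length offset and between -0.108 and 0.249 with 1 library left out, and Pdyn between -0.0917 and 0.16. In the third they were Npy -0.064, Tac1 -0.155 and Crh -0.0189 with limma voom, Sst 0.0382 with the length offset and, with 1 library left out, Npy between -0.0572 and 0.418, Pdyn between -0.126 and 0.207 and Tac1 between -0.0979 and 0.229. Where no value above shows it, the cause was not tested. The length offset and the fit without 4 libraries were chosen after seeing the data. Depth limits Crh and Tac2 most, with 26 to 131 and 54 to 311 reads per library.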
